A study of Mus musculus with 23 samples.

Results

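Astrocytes, the star-shaped glia that line synapses and blood vessels, were followed here through 10 genes chosen by name: the filament genes Gfap and Vim, the water channel gene Aqp4, the glutamate transporter genes Slc1a2 and Slc1a3, the glutamine synthetase gene Glul, the gap junction gene Gja1, the protease gene Htra1, the transcription factor gene Sox9 and the glycolytic gene Aldoc. All probe sets with 1 of these symbols in the platform annotation were taken, 12 of 12422 non-control probe sets. They stood for 8 genes, and Slc1a3 and Sox9, for which no probe set was listed, were not analysed here. Of the 12 probe sets 11, from 7 genes, passed a filter on dim signals and were tested, and that of Vim did not.

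Whole hippocampus came from 14 male mice aged 15 months and 9 aged 2 months, all C57BL/6JNIA, and each mouse has 1 array. Mice of both ages went through training in the Morris water maze, where a mouse learns where a platform is hidden, so no untrained mouse enters the comparison. The values are MAS5 signals, a summary of the hybridisation of all probes of a probe set on a linear scale. Astrocytes were not sorted. The transcript of an astrocyte gene is mixed with that of all other cells, and a change in the number of astrocytes cannot be told apart from a change in transcript per cell.

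As background, GFAP and vimentin are the intermediate filament proteins of the astrocyte cytoskeleton, and more GFAP is the classical mark of reactive astrocytes in injury, disease and old age. Astrocytes also clear glutamate from the synapse through the transporters EAAT1 (Slc1a3) and EAAT2 (Slc1a2), and glutamine synthetase (Glul) turns it into glutamine that returns to neurons. Aquaporin 4 sits in the endfeet that wrap blood vessels, the connexin made from Gja1 couples astrocytes to each other, and SOX9 is a transcription factor that maintains their identity.

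For orientation, the regions upstream of the genes with the lowest p among the members, Gfap and Htra1, are shown from RefSeq, build GRCm38.p6. Each runs from 250 bases before the annotated start of the gene to 20 bases after it, read 5′ to 3′ on the strand of the gene. That of Gfap is at chr11:102897181-102897450 on the minus strand and that of Htra1 at chr7:130935953-130936222 on the plus strand. Capitals mark matches, on either strand, to the STAT motif TTCNNNGAA, the AP-1 motif TGANTCA or the NFI motif TTGGC.
Gfap: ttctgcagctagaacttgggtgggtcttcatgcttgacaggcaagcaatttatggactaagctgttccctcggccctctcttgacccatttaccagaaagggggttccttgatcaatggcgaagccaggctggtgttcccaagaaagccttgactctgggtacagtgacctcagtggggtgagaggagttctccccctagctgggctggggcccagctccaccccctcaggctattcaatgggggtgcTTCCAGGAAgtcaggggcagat
Htra1: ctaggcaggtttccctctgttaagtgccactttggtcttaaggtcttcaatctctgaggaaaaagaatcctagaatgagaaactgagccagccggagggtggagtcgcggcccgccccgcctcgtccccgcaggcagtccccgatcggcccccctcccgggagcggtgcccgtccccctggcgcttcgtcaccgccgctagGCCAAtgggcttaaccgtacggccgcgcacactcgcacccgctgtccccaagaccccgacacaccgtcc
The Gfap window held 1 match to the STAT motif, at its annotated start, and none to the others. The Htra1 window held 1 match to the NFI motif. Among 32851 RefSeq windows of this length 7.58% held the STAT motif, 7.23% the AP-1 motif and 43.6% the NFI motif. No binding was measured here, so the matches are only a description of the letters.

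Gfap was the member with the largest difference between the ages. Its brighter probe set ran from 1138 to 2268 in the 15-month mice, with a median of 1889.65. In the 2-month mice it ran from 953.5 to 1745, with a median of 1265. The ages overlapped, with 9 of the 14 older mice above every 2-month mouse and 2 of the 9 younger mice below every 15-month mouse. The mean signal was 1820 ± 341 at 15 months (SD, n = 14) and 1329 ± 262 at 2 months (SD, n = 9). The log2 difference of 0.45 ± 0.11 (SE), a fold of 1.36 with a 95% interval of 1.16 to 1.60, did not pass the limma test after adjustment over all 7453 tested probe sets (adjusted p = 0.0851).

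The Gfap call turned on a few arrays. The 99th percentile of signal lay between 6622 and 6966 on 4 arrays and was 7281 or more elsewhere. They belong to replicates 3 and 12 of the 15-month mice and to replicates 7 and 8 of the 2-month mice. These 4 arrays held the 2 lowest Gfap signals of the 15-month mice, 1138 and 1334, and the highest and the third highest of the 2-month mice, 1745 and 1450. Without them Gfap was at 1917 ± 253 at 15 months (SD, n = 12) and 1252 ± 231 at 2 months (SD, n = 7), and 9 of the 12 older mice lay above every younger one. The log2 difference was then 0.62 ± 0.10 (SE), a fold of 1.53 with a 95% interval of 1.34 to 1.76, and passed the limma test (adjusted p = 0.00254). It also passed without 15-month replicate 3 (adjusted p = 0.0174) or 12 (0.0457) and without 2-month replicate 6 (0.0464) or 7 (0.0433), and in no other of 33 settings, over which the adjusted p in limma or by the Mann-Whitney test ran from 0.00254 to 0.201. No label sets these 4 arrays apart, and their part in the result was otherwise not tested.

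**Figure D1:**
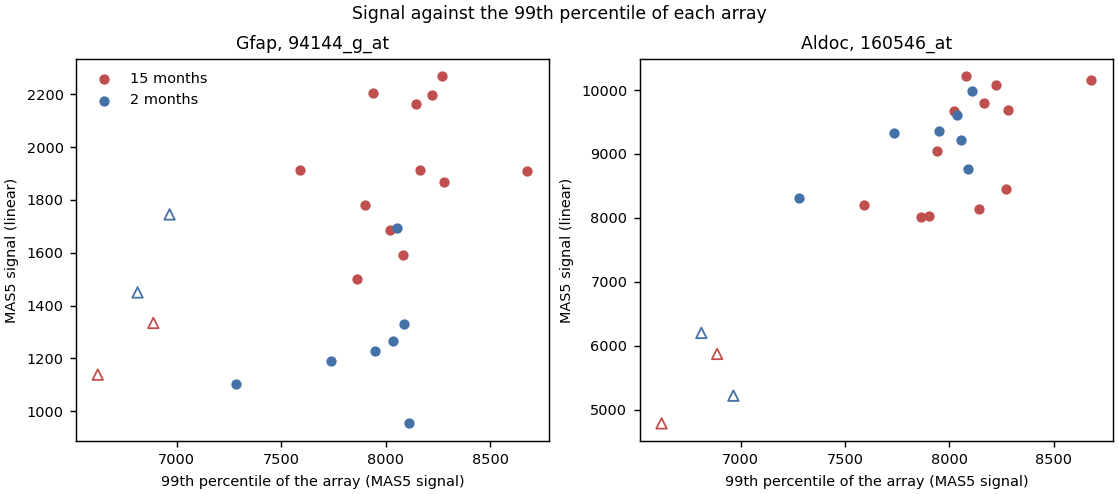
MAS5 signal of Gfap (left) and Aldoc (right) on each array against the 99th percentile of all non-control signals on that array, for 14 mice of 15 months (red) and 9 of 2 months (blue). Open triangles are the 4 arrays with a 99th percentile of 6966 or less, on which Aldoc was between 4784 and 6200 and Gfap was at 1138 and 1334 in 15-month mice and at 1450 and 1745 in 2-month mice.

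The dimmer Gfap probe set differed in the same direction by less. It ran from 203.4 to 384.6 at 15 months (median 300.2) and from 176.9 to 281.1 at 2 months (median 250.2). Again 9 of 14 older mice lay above every younger one. The highest signal, 384.6, came from 15-month replicate 12, 1 of the 4 arrays, on which the brighter probe set was at 1334. On the rest of the 4 the dimmer probe set was at 248.1 (15-month replicate 3), 281.1 and 230.1 (2-month replicates 7 and 8). The log2 difference of the dimmer probe set was 0.24 ± 0.09 (SE; limma adjusted p = 0.255), and 0.25 without the 4 arrays (adjusted p = 0.283). Both probe sets stand for the same database sequence in the annotation. After the age means were removed, their correlation over the 23 mice was 0.33.

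Vim, the other filament gene, was measured by a dim probe set with a signal of 31.4 to 244.8 in the 15-month mice (median 82.1) and 54.4 to 150.7 in the 2-month mice (median 103.2). The highest signal came from 15-month replicate 13, whose array stood apart from the rest: its 25th percentile was 53.6, and those of the others lay between 30.3 and 41.9. The difference of the mean log2 values was -0.19. In a limma fit without the filter the adjusted p was 0.859. Vimentin is also made by endothelial, meningeal and ependymal cells, and the astrocyte part of this signal was not measured.

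**Figure D2:**
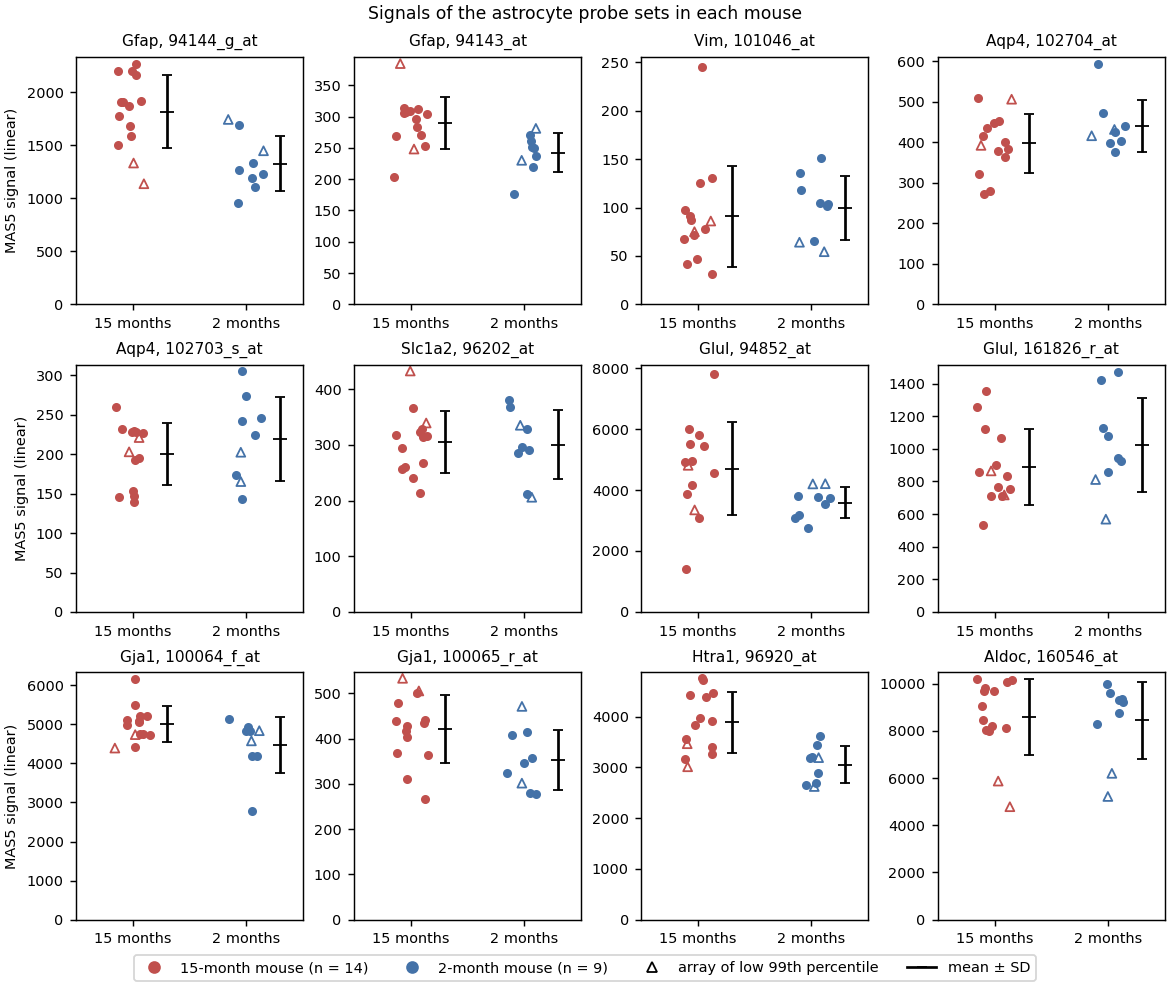
MAS5 signal of each of the 12 probe sets in every mouse, 15 months (red, n = 14) left of 2 months (blue, n = 9), with mean ± SD in black and open triangles for the 4 arrays of low 99th percentile. The ages overlap in all 12 panels, with 9 of 14 mice of 15 months above the 2-month range for each Gfap probe set and 8 for Htra1.

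Htra1, a secreted serine protease that cleaves extracellular matrix proteins, had the lowest p of the members. Its signal ran from 3012 to 4768 at 15 months (median 3883) and from 2623 to 3621 at 2 months (median 3184). Of the 14 older mice 8 lay above every younger one, and 4 of the 9 younger mice lay below every older one. The mean was 3885 ± 592 at 15 months (SD, n = 14) and 3055 ± 359 at 2 months (SD, n = 9). The log2 difference was 0.34 ± 0.08 (SE), a fold of 1.26 with a 95% interval of 1.13 to 1.42, and did not pass the limma test (adjusted p = 0.0613). Its size hardly moved without the 4 arrays, at 0.36 ± 0.09 (SE; adjusted p = 0.0664). It passed in 6 of 33 settings: without 15-month replicate 3 (adjusted p = 0.0249), 8 (0.0467) or 9 (0.0369), without 2-month replicate 1 (0.0451), with only the brighter 40% of probe sets tested (0.0451) and with the 25th percentile of each array as a covariate (0.0406). Over the settings its adjusted p ran from 0.0249 to 0.159.

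Gja1 encodes the main gap junction protein of astrocytes. The brighter of its probe sets ran from 4394 to 6167 at 15 months (median 5034) and from 2772 to 5130 at 2 months (median 4825). The low end of the younger group was a single mouse, 2-month replicate 1, and the next lowest was at 4193. The log2 difference was 0.18 ± 0.08 (SE; limma adjusted p = 0.361) and 0.09 without that mouse. The dimmer ran from 266.0 to 533.4 at 15 months (median 430.8) and from 277.3 to 471.3 at 2 months (median 345.9), a log2 difference of 0.24 ± 0.11 (SE; adjusted p = 0.364). Both means were thus higher at 15 months without passing the test, yet the probe sets ran against each other between mice of an age, with a correlation of -0.42.

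The genes of glutamate handling gave no shared direction. Slc1a2, the glutamate transporter that carries most uptake in the forebrain, ran from 214.4 to 432.8 at 15 months (median 315.1) and from 206.0 to 381.2 at 2 months (median 296.8). Its log2 difference was 0.03 ± 0.11 (SE; limma adjusted p = 0.938), with a 95% interval of -0.20 to 0.26, and was -0.07 without the 4 arrays.

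Glul, which makes glutamine from glutamate and ammonia, was the tested member with the widest gap in coefficient of variation between the ages. Its brighter probe set spanned the range from 1405 in 15-month replicate 1 to 7793 in 15-month replicate 7, with a median of 4858. In the 2-month mice it ran from 2744 to 4208, with a median of 3741. The coefficient of variation was 32.5% at 15 months and 13.9% at 2 months, a difference that was not tested. Of the older mice 9 lay above every younger one and 1 lay below every younger one. The mean log2 difference of 0.31 ± 0.19 (SE; limma adjusted p = 0.515) did not pass, and its 95% interval ran from -0.08 to 0.70. Without 15-month replicate 1, the lowest mouse, it was 0.43 ± 0.12 (SE; adjusted p = 0.118). Without 15-month replicate 7, the highest, it was 0.24 ± 0.18 (SE; adjusted p = 0.625). The other Glul probe set pointed the other way, with a signal of 534.7 to 1354 at 15 months (median 843.3), 568.8 to 1469 at 2 months (median 946.1) and a log2 difference of -0.19 ± 0.15 (SE; adjusted p = 0.633). That difference was -0.32 without the 4 arrays of low 99th percentile (95% interval -0.63 to -0.0032, adjusted p = 0.369) and -0.29 without 2-month replicate 8 alone. It was -0.09 with the 25th percentile of each array as a covariate and -0.12 without 2-month replicate 1 or without replicate 3. The annotation lists no database sequence for it, and its correlation with the brighter probe set within the ages was 0.16.

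Aqp4, the water channel of the endfeet, did not pass the test by either of its probe sets, and both log2 differences were below 0. The brighter ran from 272.8 to 508.9 at 15 months (median 397.1) and from 376.9 to 594.2 at 2 months (median 425.0). Of the older mice 4 lay below every younger one. The mean was 397 ± 72.7 at 15 months (SD, n = 14) and 439.7 ± 63.9 at 2 months (SD, n = 9). The log2 difference was -0.15 ± 0.10 (SE; limma adjusted p = 0.541), with a 95% interval of -0.36 to 0.05, and -0.10 without 2-month replicate 4, the highest mouse. The dimmer ran from 138.8 to 260.2 at 15 months (median 212.1) and from 142.8 to 305.2 at 2 months (median 224.0), with a log2 difference of -0.11 ± 0.13 (SE; adjusted p = 0.753). That difference was -0.05 without 2-month replicate 4, -0.07 without 9, -0.18 without 3 and -0.19 without the 4 arrays of low 99th percentile. These were the probe sets of a gene that best tracked each other, with a correlation of 0.70 within the ages.

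Aldoc, the aldolase isoform of astrocytes, did not pass the test, and its lowest signals were those of the 4 arrays. It ran from 4784 to 10213 at 15 months (median 8753) and from 5218 to 9990 at 2 months (median 9222), with a log2 difference of 0.02 ± 0.12 (SE; limma adjusted p = 0.955). On the 4 arrays of low 99th percentile it was between 4784 and 6200, and on all other arrays between 8007 and 10213. Without the 4 arrays the SD at 15 months was 902, against 1624 with them, and the log2 difference was -0.02 ± 0.06 (SE; adjusted p = 0.907). The 95% interval over the other 19 arrays ran from -0.14 to 0.10.

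As a group, 0 of the 11 tested member probe sets passed the limma test at a false discovery rate of 0.05, against 0.376% of all 7453 tested probe sets (0.335% higher and 0.0403% lower), and 0 did by the Mann-Whitney test. At an unadjusted p under 0.05, 5 were higher at 15 months (both of Gfap, both of Gja1 and that of Htra1) and 0 lower, against 5.89% and 6.51% of all tested probe sets and 12.4% in either direction. The log2 differences were above 0 for 8 of the 11, against 45% of all tested, and ran from -0.19 to 0.45 with a median of 0.18, against -0.02 over all tested. Differences of 0.30 or more were seen for 3 of the 11, the brighter probe sets of Gfap and Glul and that of Htra1, against 2.66% of all tested. Probe sets of a gene share their target, so the 5 stand for 3 genes. No member separated the ages without overlap, as 0.0537% of all tested probe sets did. The members were chosen with these results known, so the counts are a description.

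**Figure D3:**
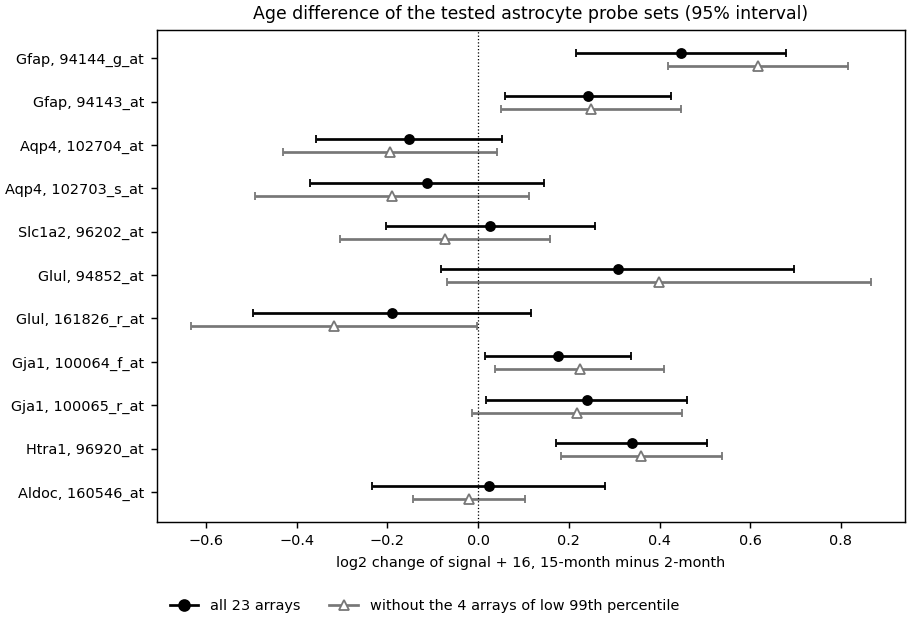
Log2 difference between the ages, 15-month minus 2-month, with its 95% interval in the limma fit, for the 11 tested probe sets over all 23 arrays (filled circles) and without the 4 arrays of low 99th percentile (open triangles). The brighter Gfap probe set lies at 0.62 without the 4 arrays and at 0.45 with all, and the intervals of Slc1a2 and Aldoc include 0 in both fits.

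Between mice of the same age the probe sets of the members did not vary as a block. Over the 28 pairs of the 8 genes, each by its brightest probe set with age means removed, Pearson's r ran from -0.48 to 0.49 with a median of -0.06. Probe sets of the same gene had r of 0.70 (Aqp4), 0.33 (Gfap), 0.16 (Glul) and -0.42 (Gja1) with each other. Whether the transcripts vary together therefore cannot be told from these values. Gja1 was the gene closest to Gfap, with r = 0.49 (unadjusted permutation p = 0.0153, adjusted p = 0.107 over 7 genes) and Spearman's rho = 0.53 (permutation p = 0.0106, adjusted p = 0.0745). The correlation of Gja1 with Gfap was 0.58 in the 15-month mice (permutation p = 0.0319) and 0.49 in the 2-month mice (exact permutation p = 0.203). Without 2-month replicates 1 and 3, the mice farthest from the median of Gfap across both ages, it was 0.50. That median was taken before the age means were removed. The choice thus kept 15-month replicate 3 (Gfap 1138), the lowest of its age, and 2-month replicate 7 (Gfap 1745), the highest of its age. Without the 4 arrays of low 99th percentile, which include both of these mice, the correlation was 0.42. With the 25th percentile of each array as a covariate the rho of Gja1 passed (rho = 0.59, permutation p = 0.00328, adjusted p = 0.0230) while its r did not (r = 0.51, permutation p = 0.0107, adjusted p = 0.0748). The other probe sets did not give the same value: the dimmer one of Gja1 had r = -0.16 with the brighter one of Gfap, and the dimmer one of Gfap had r = 0.27 with the brighter one of Gja1. Of 7452 other tested probe sets 1.38% reached as high a correlation with Gfap. The correlations of Gfap with Glul (r = 0.36, rho = 0.36), Aldoc (0.21, rho = -0.01), Htra1 (0.18, rho = 0.00), Slc1a2 (-0.15, rho = -0.09), Vim (-0.26, rho = -0.29) and Aqp4 (-0.33, rho = -0.30) did not pass either, with permutation p from 0.107 to 0.497 for r and from 0.0904 to 1 for rho, and adjusted p from 0.309 to 0.497 for r and from 0.317 to 1 for rho.

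Aldoc and Gfap were also set against each other within each age. Among the 15-month mice Aldoc and Gfap correlated with r = 0.71 (permutation p = 0.00639, adjusted p = 0.0447) but rho = 0.40 (permutation p = 0.160, adjusted p = 0.373). Replicates 3 and 12 of this age, on arrays of low 99th percentile, had its lowest signals of both genes (Gfap 1138 and 1334, Aldoc 4784 and 5871). Among the 2-month mice the sign was opposite, with r = -0.63 (exact permutation p = 0.0703, adjusted p = 0.345) and rho = -0.62 (exact permutation p = 0.0857, adjusted p = 0.200). In that age replicates 7 and 8 had Aldoc at 5218 and 6200 and Gfap at 1745 and 1450. The correlation of each age without its low arrays was not computed. Over both ages without the 4 arrays r was -0.07. The difference between the ages in this correlation was not tested.

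**Figure D4:**
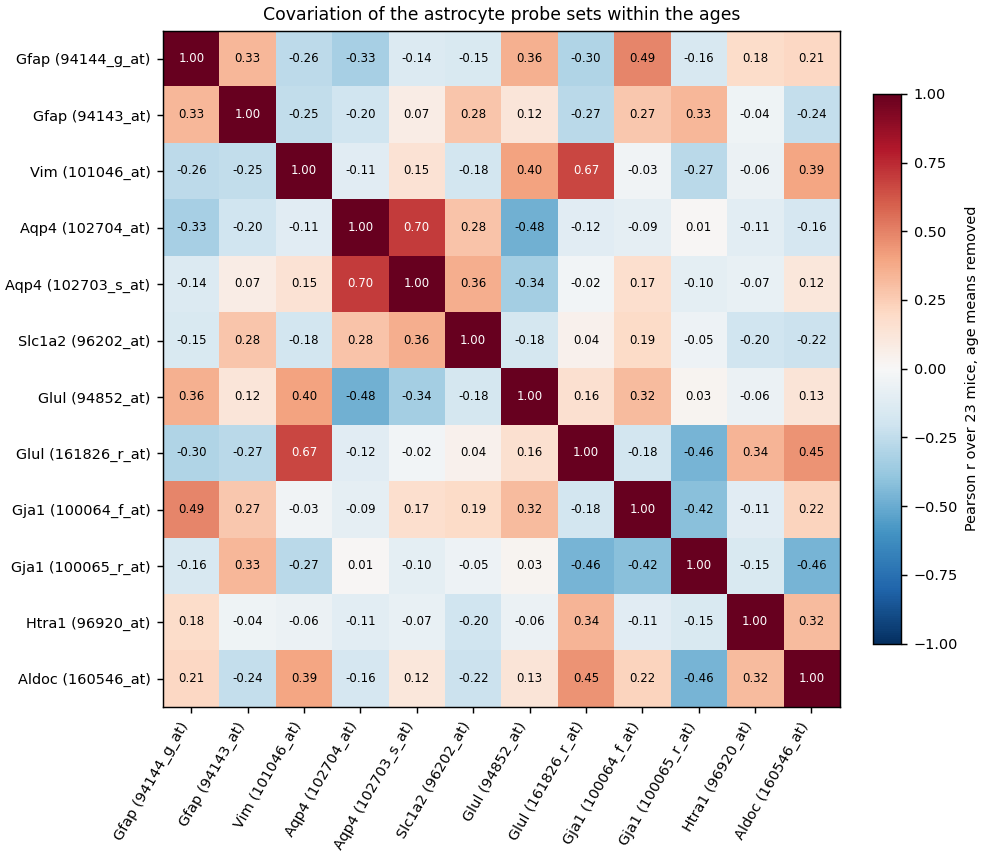
Pearson's r between the 12 probe sets over the 23 mice after the mean of each age was removed, from -1 (blue) to 1 (red). The probe sets of Aqp4 reach 0.70 with each other, those of Gfap 0.33, those of Glul 0.16 and those of Gja1 -0.42.

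Outside the members, the 5 probe sets with 1 symbol that followed Gfap most closely within the ages, out of 6754 ranked over 23 mice, were those of Arpc2 (r = 0.68), Cnbp (0.66), Col18a1 (0.66), Ctsb (0.65) and Bmp1 (0.65). Arpc2 encodes a subunit of the actin-branching ARP2/3 complex, Cnbp a nucleic acid-binding zinc finger protein, Col18a1 a basement membrane collagen, Ctsb the lysosomal protease cathepsin B and Bmp1 a procollagen protease. None of them passed the limma test between the ages, with adjusted p from 0.229 to 0.773. The ranking used the brighter Gfap probe set, whose r with the dimmer one was 0.33. Over the 7452 other tested probe sets the 95th percentile of r was 0.37. These 5 are the highest of many values, and whether they exceed what chance gives was not tested.

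The wider set of astrocyte genes held 9 lists by role, and 87 of their genes that were not members were tested. Of these 2 rose in the limma test and 0 fell, against 0.335% and 0.0403% of all tested probe sets. At an unadjusted p under 0.05, 16 were higher and 4 lower, against 5.89% and 6.51% of all tested. Of the 87 genes 59 had log2 differences above 0, against 45% of all tested probe sets, with a median of 0.06. S100b, a calcium-binding protein of astrocytes, rose to 861 ± 117 at 15 months (SD, n = 14), against 638 ± 99.8 at 2 months (SD, n = 9), with a log2 change of 0.43 ± 0.09 (SE; limma adjusted p = 0.0128). It lost the call only with the Mann-Whitney test among 33 settings (adjusted p = 0.0536, the range being 0.00763 to 0.0536). Slc2a1, the glucose transporter GLUT1 of endothelium and astrocytes, rose to 958 ± 222 at 15 months, against 643 ± 121 at 2 months, a log2 change of 0.55 ± 0.12 (SE; limma adjusted p = 0.0220). It lost the call in 5 of 33 settings, without 2-month replicate 2, 3, 4 or 5 and with the Mann-Whitney test, at adjusted p up to 0.0814.

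By role, among 5 other intermediate filament and associated genes 0 passed and the median log2 difference was 0.06. Nes, the filament protein nestin of progenitors and reactive astrocytes, averaged 297 ± 52.2 in 15-month mice and 279 ± 46.5 in 2-month mice (SD; limma adjusted p = 0.786), and Lmna, a nuclear lamin, differed by 0.11 (adjusted p = 0.660) or, by its other probe set, by -0.08. Among 4 other gap junction genes 0 passed, and all 4 had differences above 0, with a median of 0.13. Gjb6, another connexin of astrocytes, averaged 648 ± 107 in 15-month mice and 572 ± 71.7 in 2-month mice (SD), with a log2 difference of 0.17 (adjusted p = 0.455), and its second probe set differed by 0.36 (adjusted p = 0.117). Gjb2, a connexin also made by meningeal cells, differed by 0.23 (adjusted p = 0.682).

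Among 5 other genes of glutamate uptake and metabolism 0 passed, with a median log2 difference of -0.02. Slc1a4, a transporter of neutral amino acids including alanine and serine, averaged 1128 ± 169 in 15-month mice and 1301 ± 218 in 2-month mice (SD), with a log2 difference of -0.20 (limma adjusted p = 0.393). Got2, the mitochondrial aspartate aminotransferase, differed by -0.15 (adjusted p = 0.650). Among 6 other genes of endfeet, water and ion transport 0 passed, with a median of 0.00. Slc12a2, the sodium-potassium-chloride cotransporter NKCC1, differed by 0.31 (adjusted p = 0.264), and Dtna, alpha-dystrobrevin of the endfoot dystrophin complex that holds aquaporin 4, by -0.28 (adjusted p = 0.350).

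In energy metabolism 1 of 11 other genes rose, Slc2a1, and the median was 0.02. Pdk4, a kinase that holds back pyruvate oxidation, averaged 166 ± 24.2 in 15-month mice and 123 ± 21.1 in 2-month mice (SD), with a log2 difference of 0.39 ± 0.10 (SE; limma adjusted p = 0.0981, with 0.0437 to 0.245 over the settings). Among 13 glial transcription factors 0 passed, with a median of -0.03. Nfia, a nuclear factor I protein that drives astrocyte formation, differed by 0.55 ± 0.22 (SE; adjusted p = 0.289) from a dim probe set. That signal ran from 89.1 to 245.5 at 15 months (median 129.2) and from 10.9 to 153.8 at 2 months (median 101.5). Id3, an inhibitor of DNA binding, differed by -0.31 (adjusted p = 0.331). Among 14 other secreted proteins 0 passed, 11 had differences above 0 and the median was 0.06. Mt1, a zinc-binding metallothionein, averaged 9915 ± 1550 in 15-month mice and 8025 ± 584 in 2-month mice (SD), with a log2 difference of 0.29 ± 0.08 (SE; adjusted p = 0.131). Like Gfap it passed without the 4 arrays of low 99th percentile (adjusted p = 0.00376) and also without 15-month replicate 3, with adjusted p of 0.00376 to 0.266 over its settings. Timp3, an inhibitor of matrix proteases, differed by 0.44 (adjusted p = 0.268).

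**Figure D5:**
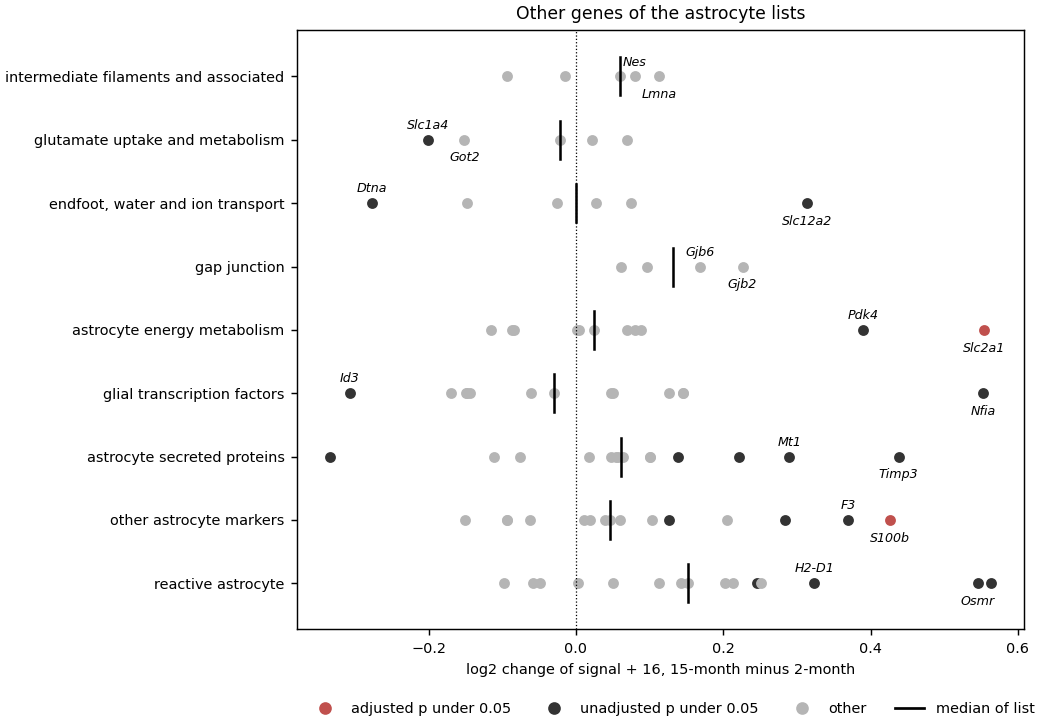
Log2 difference between the ages, 15-month minus 2-month, of each tested gene of the 9 astrocyte lists that is not a member, with the median of each list as a black bar. Red points are S100b and Slc2a1, which passed the limma test, and dark points had an unadjusted p under 0.05.

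Among 15 other astrocyte markers 1 rose, S100b, and 11 had differences above 0, with a median of 0.05. F3, tissue factor of the coagulation cascade, which astrocytes make, averaged 703 ± 106 in 15-month mice and 550 ± 135 in 2-month mice (SD), with a log2 difference of 0.37 ± 0.11 (SE; limma adjusted p = 0.162). Among 15 other genes known from reactive astrocytes 0 passed, 12 had differences above 0 and the median was 0.15. Osmr, the oncostatin M receptor that signals through STAT3, averaged 149 ± 31.8 in 15-month mice and 99.1 ± 30.3 in 2-month mice (SD), with a log2 difference of 0.55 ± 0.14 (SE; adjusted p = 0.0936). All 14 older mice exceeded the mean of the younger ones, and it passed only without 2-month replicate 6 (adjusted p = 0.0327), the range over its settings being 0.0327 to 0.217. H2-D1, an MHC class I gene whose probe set can share probes with relatives, differed by 0.32 (adjusted p = 0.234). The list also holds genes of other cells, such as MHC class I and complement genes.

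Markers of other cells were measured on the same arrays. Summed signals take in all markers of a list with a probe set, also those too dim to be tested. Of the 10 hippocampal neuron markers with a probe set, which the tissue label calls for, 9 were bright enough to be tested. Among them was Zbtb20, which was also counted with the glial transcription factors. Of 11 microglia markers 7 were tested, 0 passed and all 7 had differences above 0, with a median of 0.16 and a summed signal of 3278 to 3895 at 15 months and 2957 to 3747 at 2 months. Oligodendrocyte markers (7 tested, 0 passed) summed to 11784 to 21007 at 15 months and 11408 to 21661 at 2 months, neuron markers (9 tested, 0 passed) to 37526 to 44084 at 15 months and 38039 to 44228 at 2 months, and hippocampal neuron markers (9 tested, 0 passed) to 9373 to 12755 at 15 months and 10529 to 12553 at 2 months. Radial glia and progenitor markers (5 tested, 0 passed), which include cells that also make Gfap and Vim, had a median of -0.20, summing to 1479.7 to 2225 at 15 months and 1633 to 2513 at 2 months. Endothelium (8 tested, 0 passed) summed to 1516 to 3198 at 15 months and 1603 to 2433 at 2 months, and pericytes and smooth muscle (6 tested, 0 passed) to 971 to 2318 at 15 months and 1069.6 to 1939 at 2 months. The only oligodendrocyte progenitor marker with a probe set had a difference of 0.02 and did not pass. Differences above 0 were seen for 2 of 7 oligodendrocyte, 3 of 9 neuron and 2 of 9 hippocampal neuron markers. The medians were -0.09, -0.02 and -0.08, and 45% of all tested probe sets were above 0. At an unadjusted limma p under 0.05, 3 microglia and 2 endothelium markers were higher, against 5.89% of all tested. Lower were 2 oligodendrocyte, 2 progenitor and 1 hippocampal neuron markers, against 6.51%.

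Markers of tissue at the border of the hippocampus were measured too, with sums again over all markers with a probe set. Choroid plexus markers (3 tested, 0 passed) summed to 415 to 11662 at 15 months and 271 to 10649 at 2 months, and meningeal markers (7 tested, 0 passed) to 4809.7 to 12990.2 at 15 months and 4829 to 10585 at 2 months. Ependymal markers (4 tested) summed to 2036 to 2771 at 15 months and 1926 to 2649 at 2 months. Differences were above 0 for 2 of them and below 0 for 2 (Foxj1 -0.16 and Rsph1 -0.16), with a median of 0.07. The 1 that passed was S100a6, which rose with a log2 change of 0.40 ± 0.09 (SE; limma adjusted p = 0.0288). This calcium-binding protein is also made by astrocytes and fibroblasts. Its call was lost in 11 of 33 settings, at adjusted p up to 0.103, among them the fit without the 4 arrays and that with choroid plexus and meningeal covariates. No marker with a probe set was at 0 in all mice. With the mean choroid plexus and meningeal levels in the model the Gfap difference was 0.43 (adjusted p = 0.196) and that of Htra1 0.34 (adjusted p = 0.120). The part of the other cell types in these differences was not tested.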

How the data were processed

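Biotin-labelled target from TRIzol-extracted RNA was read on 1-colour Affymetrix arrays, per the labels' protocols. The authors deposited linear intensities from MAS5 (per the submitters' processing notes), with a version not given in the sources used here and unknown settings. The mean after trimming 2% at each end was 500.3 on every array, so arrays had been scaled alike and were not normalised again. Array medians were 154.9 to 187.95, and the number of arrays limits the precision. In exact permutation tests over 817190 regroupings the ages gave p = 0.395 for the array median, 0.576 for the 25th and 0.318 for the 99th percentile (adjusted p = 0.576 each).

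Ages were compared over all 23 mice with limma 3.58.1 in R 4.3.3 (trend, robust) on log2(signal + 16), two-sided, with Benjamini-Hochberg adjustment, for the 7453 non-control probe sets whose mean was above the 40th percentile, a signal of 91.7. Folds refer to signal + 16, which shrinks those of dim genes. Probe sets were named by platform annotation (10833 with 1 symbol, 396 with several, 1193 with none). Suffixes such as _f_at, _g_at, _r_at and _s_at mark probe sets whose probes may not be unique. Correlations within the ages used 100000 permutations, or all of them for the 2-month mice alone, two-sided. Python 3.11.15, numpy 2.4.6, scipy 1.17.1, pandas 2.3.3 and matplotlib 3.10.9 were used. The limma step was tested on simulated data.

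Named were all member probe sets, the 2 genes of lowest p of each astrocyte list, each listed gene past the test and the 5 probe sets most like Gfap. A gene that is not a member was counted by its brightest probe set. The members, lists and alternatives were chosen with earlier results of these data known. Replicate numbers follow accession order, and the p-values for age set the difference between the ages against the spread between mice.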

Additional observations from a re-analysis of the deposited data

Results flagged for a closer look

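Among the 2-month mice, the only group small enough for the test, 2 of 12 member probe sets had a mouse whose gap to the next exceeded Dixon's 95% critical value of 0.493 for 9 samples, and chance flags about 1 group in 20. The brighter probe set of Gja1 was at 2772 in 2-month replicate 1, with the next mouse at 4193, a gap of 0.603 of the range. That of Aqp4 was at 594.2 in 2-month replicate 4, with the next at 471.6, a gap of 0.564 of the range.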

How the results depend on the processing

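Of 361 results of single member probe sets under other settings 342 kept the direction and the side of the threshold, 11 newly passed (5 of Gfap and 6 of Htra1, given above) and 8 changed sign. The other filters, the fit without trend and robust variance and the Mann-Whitney test keep the log2 difference of the main fit. In those settings only the side of the threshold could change. The count of called member probe sets was 1 with the 60th-percentile filter, 1 with the 25th percentile of each array as covariate, 1 without the 4 arrays of low 99th percentile, and 0 to 2 when single mice were left out. The count over all probe sets was 28 (25 higher, 3 lower), and 60 (39 higher, 21 lower) with the 25th percentile as covariate and 20 to 39 when single mice were left out. The sign changes were those of Slc1a2, at -0.073 without the 4 arrays and -0.034 to 0.071 when single mice were left out, and of Aldoc, at -0.013 after quantile normalisation, -0.020 without the 4 arrays and -0.060 to 0.086 when single mice were left out. Without the 4 arrays the correlations with Gfap also changed sign for Slc1a2 (0.18), Htra1 (-0.035) and Aldoc (-0.071). The cause was not tested. No paired analysis was possible because the labels give the ages no shared replicate numbers. Vim could be tested only without the filter. Signals carried no detection calls, so how far dim probe sets such as that of Vim lie above background is unknown.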
